A study of Mus musculus with 30 samples.

Results

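The genes described here are the mouse matrix metalloproteases (MMPs), the ADAMTS proteases with their ADAMTS-like relatives, and the tissue inhibitors of metalloproteases (TIMPs). They were taken by symbol, and 51 of the 54393 genes in the RNA-seq files matched. They comprised 23 MMPs, 19 ADAMTS proteases, 5 ADAMTS-like proteins and 4 TIMPs. The study compared brain endothelial cells (ECs) fresh from the animal with the same cell type grown for 8 days in culture, by RNA-seq and ATAC-seq, and asked whether stabilized beta-catenin changes the cultured cells.

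Acutely isolated ECs were GFP-positive cells sorted from the brains of adult Tie2-GFP mice, in which a Tie2 promoter drives GFP in ECs (2 RNA-seq and 2 ATAC-seq libraries). GFP-negative cells from the same sort gave 2 RNA-seq libraries, and for both fractions the authors combined cerebrum and cerebellum data. WT cultures were grown from C57BL/6J brains by papain digestion (method A, replicates 1 and 2) or from Ctnnb1flex3/+;Tie2-GFP brains by Dounce homogenization followed by collagenase and dispase (method B, replicates 3 to 6), giving 6 libraries for each assay. Beta-catenin stabilized cultures came from Ctnnb1flex3/+;Pdgfb-CreER;Tie2-GFP mice, in which an endothelial Pdgfb driver carries a tamoxifen-dependent Cre. They gave 4 RNA-seq libraries (replicates 1 and 2 by method A, 3 and 4 by method B) and 2 ATAC-seq libraries by method B. Stabilized and method B control mice all received 4-hydroxytamoxifen, and the method B controls carry the flex3 allele without Cre. All mice were adult males. All cultures were selected with puromycin and grown on type 1 collagen. Brains of several mice were pooled for each culture experiment, and its 2 replicates were separate wells. The p-values count each well or sort as a replicate, although the 2 wells of an experiment are not independent. In fits over all cultures, the spread also includes that between experiments, which differ in isolation method, control genotype and sequencing. Within a single experiment it is the spread between wells, which may be technical.

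RNA-seq totals ran from 24284843 to 94686456 estimated counts per library. Acute and GFP-negative libraries were single-end reads of 75 cycles and the cultured ones were paired-end reads of 36 cycles, except WT replicates 3 and 4, which had 150 cycles and were prepared elsewhere. Read type and culture cannot be told apart. Summed over 8 endothelial markers, levels were 2580 to 3370 TPM (a transcript's share of a library after division by its length) in acute ECs, 2180 to 5490 in WT cultures and 101 to 108 in GFP-negative cells. Summed over 6 pericyte markers, they were 535 to 547 TPM in acute ECs, 357 to 707 in GFP-negative cells and 2.53 to 5.37 in WT cultures. By the test described below, all 6 pericyte markers were lower in culture than in acute ECs. Of the 8 endothelial markers, 1 was higher and 2 were lower. In such bulk samples, fewer cells of a type and less RNA per cell cannot be told apart. Any part of pericyte RNA in the acute levels given here was not tested.

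MMPs are zinc proteases that cut collagens, gelatin, proteoglycans and other matrix proteins, and most are made as inactive zymogens. ADAMTS proteases are secreted relatives that cut proteoglycans such as versican and aggrecan, trim procollagens or, in the case of ADAMTS13, cut von Willebrand factor. ADAMTS-like proteins keep the ancillary domains but lack the protease. TIMPs bind the active site of these enzymes, and TIMP3, which stays bound to the matrix, is also the main TIMP acting on ADAMTS proteases. In the brain, metalloproteases of vessels and glia are best known for remodelling the vascular basement membrane and for opening the blood-brain barrier in injury.

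TIMP3 dominated the acute ECs. Timp3 averaged 220 ± 75.1 TPM (SD, n = 2), which was 57.2% of the 385 TPM summed over the 51 genes. Adamts1 followed at 54.4 ± 5.9, Adamts10 at 31.9 ± 17.8 and Mmp28 at 22.7 ± 4.96 TPM. With 2 libraries, Adamts10 and Mmp28 did not differ beyond their spread, nor did Adamtsl4 (12.5 ± 9.62), Adamtsl2 (12.4 ± 4.19) and Mmp15 (8.18 ± 4.02). In acute ECs, 7 of the 51 genes reached 5 TPM in both libraries and 12 had no count in either. Over protein-coding transcripts alone, 3 of those 7 fell short of 5 TPM in at least 1 library, namely Adamts10 (2.37 and 5.08), Adamtsl2 and Adamtsl4 (at most 0.648), and Adamts10 then stood below Mmp28. In WT culture 4 genes led, and they overlapped within their spread: Timp1 (172 ± 173 TPM, n = 6), Timp2 (141 ± 135), Timp3 (127 ± 49.8) and Adamts1 (65.4 ± 47.4). Their order turned on the 150-cycle wells. By median it was Timp3 (117 TPM), Timp1 (76.8), Timp2 (59.5) and Adamts1 (50.6), and Timp3 exceeded Timp1 in all 4 of the 36-cycle wells. GFP-negative cells were led by Timp4 at 123 ± 97.7 TPM (n = 2), and stabilized cultures by Timp3 at 175 ± 66.5 (n = 4).

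A gene was called different when its Benjamini-Hochberg adjusted p in edgeR's quasi-likelihood test was under 0.05, its log2 fold change exceeded 1 in size, and every library of the higher group had at least 5 TPM. Between WT culture and acute ECs, 39 of the 51 genes passed the filter on low counts. Of these, 2 were called higher in culture (5.13%, against 13.5% of the 13798 genes tested) and 5 lower (12.8%, against 10.2%). By adjusted p alone, 14 were higher (35.9%, against 23.9%) and 12 lower (30.8%, against 21.3%). The median log2 fold change was 0.97 over the 39 genes and 0.10 over all genes tested. The genes called higher were the inhibitors Timp1 and Timp2. Those called lower were the third inhibitor Timp3, the proteases Mmp15, Mmp28 and Adamts10, and Adamtsl2.

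Timp1, a secreted inhibitor known to be induced by growth factors and cytokines, stood at 0.466 and 0.276 TPM in the 2 acute libraries. In the 6 WT cultures its level was 34.9 TPM at the lowest, 76.8 at the median and 409 at the highest. The groups did not overlap, and the log2 fold change was 8.25 ± 1.12 (SE; adjusted p = 0.000721). GFP-negative cells held 0.918 and 4.60 TPM. WT replicates 3 and 4, the 150-cycle libraries, were the high ones at 381 and 409 TPM. Without them the log2 fold change was 7.48 ± 0.71 (adjusted p = 0.000762).

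Timp2, which inhibits MMP2 and also takes part in its activation by MMP14, measured 3.81 and 5.34 TPM in acute ECs. In WT cultures it measured 47.9 TPM at the lowest, 59.5 at the median and 318 at the highest, again above both acute libraries. Its log2 fold change was 2.77 ± 0.80 (adjusted p = 0.0203), and the call was lost without acute replicate 1 (adjusted p = 0.0615) or 2 (adjusted p = 0.142). The 36-cycle WT cultures alone gave 1.92 ± 0.39 (adjusted p = 0.00793). GFP-negative cells held 45.6 and 70.7 TPM, and the log2 difference of acute ECs from them was -2.08 ± 0.48 (adjusted p = 0.0239).

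Timp3 measured 273 and 167 TPM in acute ECs and 65.7 and 95.9 in GFP-negative cells. WT cultures held 82.2 TPM at the lowest, 117 at the median and 190 at the highest. The highest cultures, replicates 3 and 4, exceeded acute replicate 2, so TPM levels overlapped. The fitted log2 fold change between cultures and acute ECs, which rests on counts scaled by library, was -1.45 ± 0.28 (adjusted p = 0.00328). With the wells of each experiment summed it was -1.35 ± 0.53 and the call was lost (adjusted p = 0.0874). The 2 acute libraries also drew on different transcripts of the gene: Timp3-202 made up 69.2% of the Timp3 TPM in replicate 1 and 5.93% in replicate 2. The difference from GFP-negative cells was 1.0 ± 0.31 on the log2 scale and was not called (adjusted p = 0.0561).

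Timp4 was the TIMP of the GFP-negative fraction, at 53.4 and 192 TPM against 0.0639 and 2.08 in acute ECs. Its log2 difference was -6.38 ± 1.06 (adjusted p = 0.0088). Summed over 6 astrocyte markers, the GFP-negative libraries held 1450 to 3530 TPM and the acute ones 87.7 to 467, and their part in the Timp4 values was not tested. Cultures ranged from 0.0581 to 2.81 TPM.

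**Figure D1:**
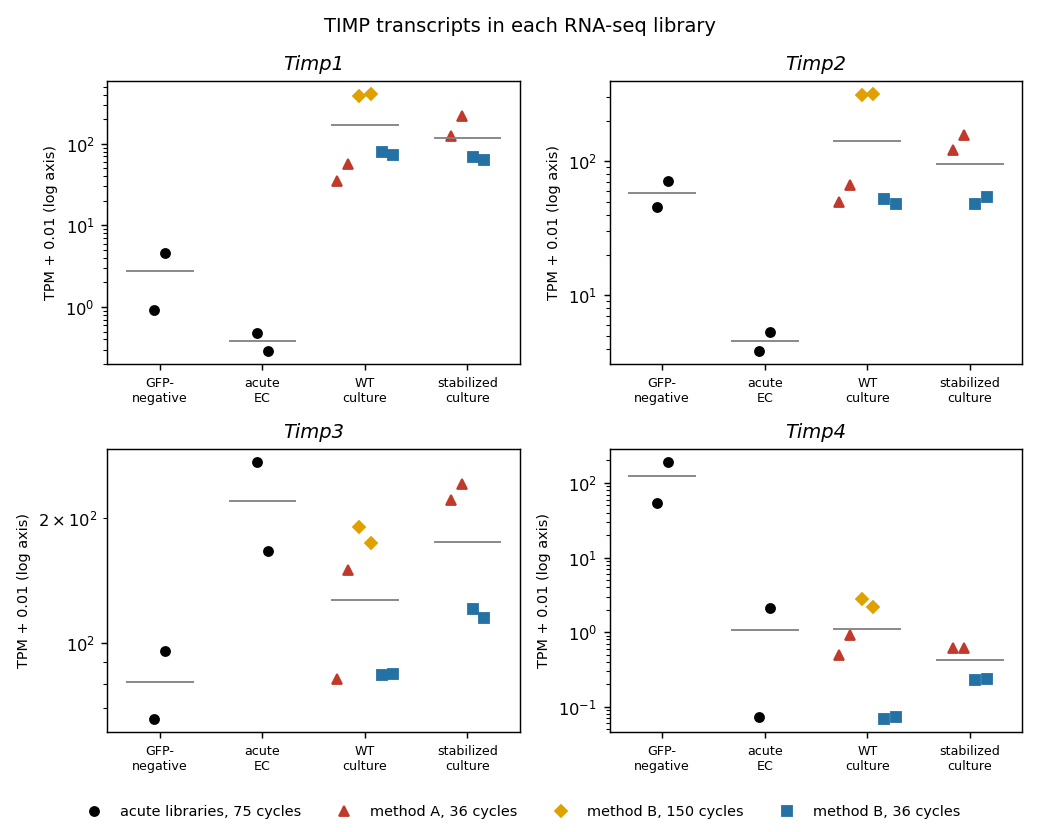
Level of each TIMP transcript (TPM plus 0.01, log axis) in every RNA-seq library, with points for libraries coded by isolation method and read length and a bar at the group mean. Timp1 lies at 0.466 and 0.276 TPM in the acute libraries and at 34.9 TPM or more in every culture, Timp3 lies highest in acute replicate 1 (273 TPM), and Timp4 lies highest in the GFP-negative libraries.

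Among the MMPs, acute ECs were marked by Mmp28 and Mmp15. Mmp28 encodes epilysin, a secreted MMP, and measured 26.2 and 19.2 TPM in acute ECs against 0.416 and 1.34 in GFP-negative cells. That log2 difference was 5.04 ± 0.45 (adjusted p = 0.00185). In WT cultures Mmp28 measured 3.40 TPM at the lowest, 4.49 at the median and 6.21 at the highest, all under both acute libraries and over both GFP-negative ones. The log2 fold change from acute ECs was -2.96 ± 0.72 (adjusted p = 0.00983), and the call was lost without acute replicate 1 (adjusted p = 0.0588). The 4 stabilized cultures held 6.90, 7.30, 5.58 and 5.32 TPM.

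Mmp15, a membrane-anchored MMP of the same type as Mmp14, measured 11.0 and 5.34 TPM in acute ECs and 1.82 and 3.40 in GFP-negative cells. WT cultures held 0.960 TPM at the lowest, 1.84 at the median and 2.82 at the highest, below both acute libraries. The log2 fold change between culture and acute ECs was -3.79 ± 0.56 (adjusted p = 0.00106). This fitted change in scaled counts, 13.8-fold, was larger than that in mean TPM, from 8.18 to 1.78. The difference between acute ECs and GFP-negative cells was 2.13 ± 0.63 (adjusted p = 0.0479), and it lost its call in 6 of 11 alternative analyses.

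Mmp14 and Mmp2 act as a pair, since MMP14 at the cell surface activates the gelatinase MMP2. Mmp14 measured 0.911 and 0.487 TPM in acute ECs and 7.53 and 11.9 in GFP-negative cells, a log2 difference of -3.49 ± 0.73 (adjusted p = 0.0173). In WT cultures it measured 4.23 TPM at the lowest, 18.1 at the median and 34.7 at the highest. All 6 exceeded the acute libraries, and the log2 fold change of 3.79 ± 0.77 passed the adjusted p (0.00445) while replicates 5 and 6 fell short of 5 TPM. Mmp2 measured 4.65 and 0.02 TPM in acute ECs, where 85.7% of the higher value came from a processed transcript that encodes no protein. Its WT cultures ran from 1.67 to 26.5 TPM, and its log2 fold change of 2.76 ± 1.31 did not pass (adjusted p = 0.114). The other gelatinase, Mmp9, stayed at or under 0.0401 TPM in all 12 EC libraries.

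The secreted collagenase and stromelysins were undetected in acute ECs and present in culture. Mmp13, a collagenase, had 0 counts in both acute libraries and 3386 over the WT cultures, which is at least 667-fold higher per library total against a floor of 3 counts over the group. Its cultures fell apart by method: method A wells held 0.278 and 0.119 TPM, whereas method B wells held 5.01, 4.34, 8.73 and 9.07. Mmp3, stromelysin 1, was at least 44.5-fold higher in culture and reached 1.90 TPM. Mmp10, stromelysin 2, was at least 15.4-fold higher and reached 0.552 TPM. The stromelysin-related Mmp11 had a log2 fold change of 2.51 ± 0.66 (adjusted p = 0.0139). Of the 4 stromelysins and matrilysins, 3 were tested and all 3 were higher by adjusted p (against 23.9% of all genes tested), none at 5 TPM. Mmp3 and Mmp10 rest on 226 and 78 counts over the WT cultures and 0 in acute ECs. Mmp1a, listed as a polymorphic pseudogene, was at least 4.33-fold higher from 22 counts. Reads of Mmp1a and its close copy Mmp1b may be split between them.

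The remaining MMPs were low. Mmp25, a membrane-anchored MMP best known from neutrophils, measured 1.51 and 1.76 TPM in acute ECs and 0.0301 and 0.151 in GFP-negative cells (log2 difference 4.85 ± 0.84, adjusted p = 0.01). The summed level of 6 neutrophil markers was 1.61 to 9.54 TPM in acute ECs and 38.1 to 43.2 in GFP-negative cells. Mmp16, also membrane-anchored, measured 0.0221 and 0.0320 TPM in acute ECs against 5.24 and 3.61 in GFP-negative cells (log2 difference -8.35 ± 0.89, adjusted p = 0.00255). Mmp19 had 2 counts over the acute libraries, 1308 over the GFP-negative ones and 194 over WT cultures. Its ratios per library total were 817 (exact 95% interval 226 to 6760) for GFP-negative cells over acute ECs and 57.3 (15.7 to 477) for WT culture over acute ECs. Mmp23 was at least 35.0-fold lower in acute ECs than in GFP-negative cells and at least 64.2-fold higher in culture than in acute ECs, with WT replicates 3 and 4 highest at 6.07 and 5.87 TPM. Mmp7 had 0 counts in all 14 libraries, and Mmp20, Mmp21 and Mmp27 reached at most 0.0674 TPM in any. These intervals and floors cover counting error only.

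**Figure D2:**
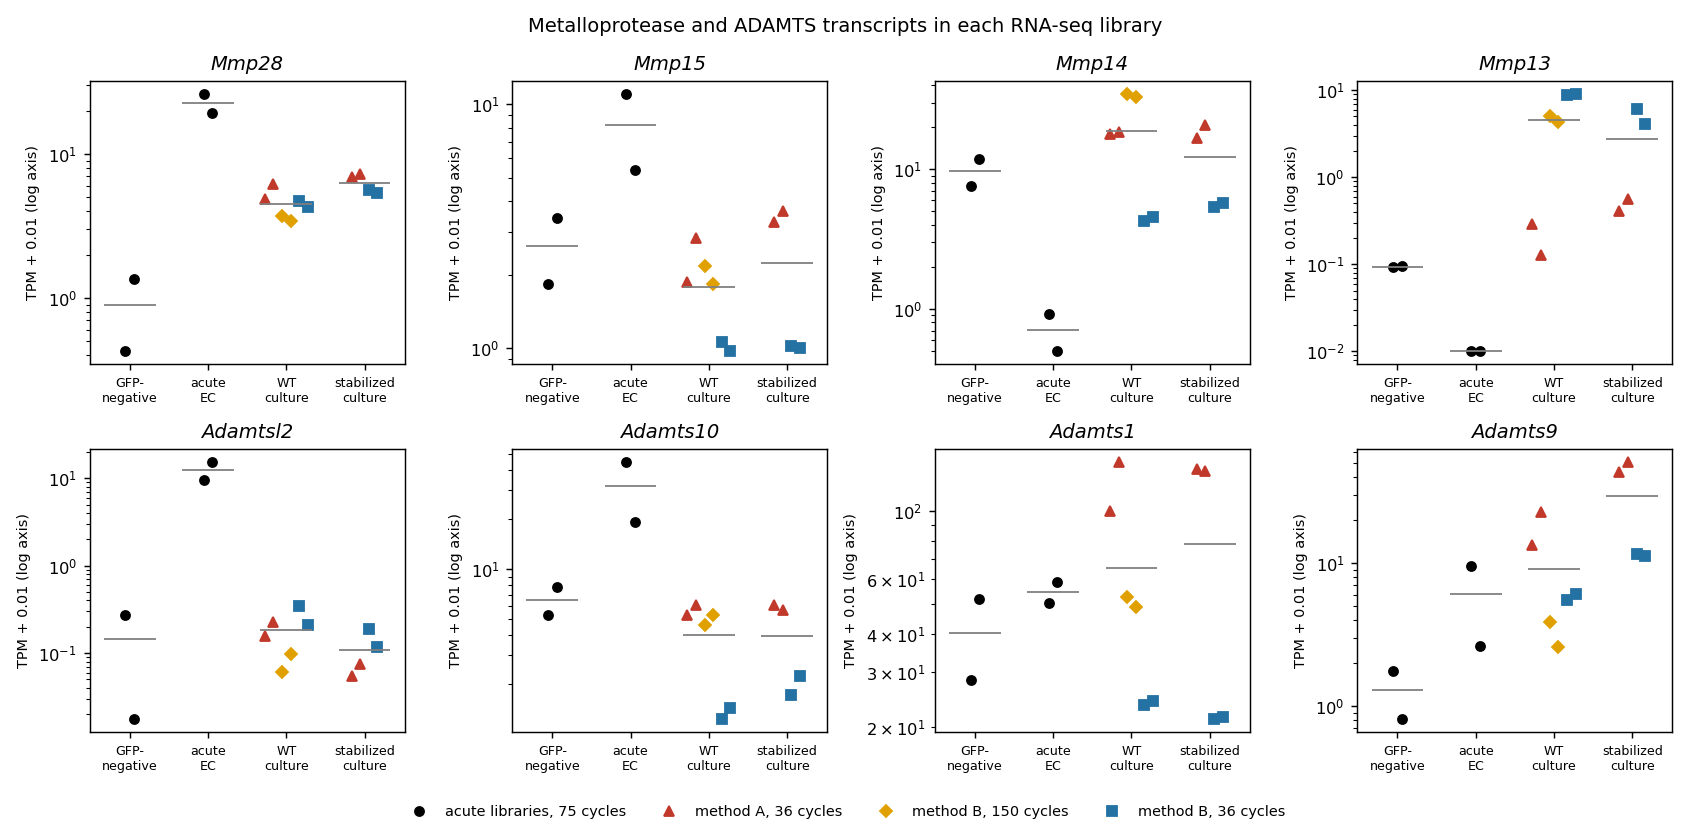
Level (TPM plus 0.01, log axis) of 8 proteases and ADAMTS-like genes in every RNA-seq library, with points coded by isolation method and read length and a bar at the group mean. Mmp28, Mmp15, Adamtsl2 and Adamts10 are highest in the 2 acute EC libraries, Mmp13 is at 0 there, and Mmp14 and Adamts1 differ more among WT culture experiments than between the paired wells of any one.

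Of 15 tested ADAMTS proteases, 0 were called higher in culture and 1 lower (against 13.5% and 10.2% of all genes). By adjusted p alone, 3 were higher and 5 lower (against 23.9% and 21.3%). Adamts10, a fibrillin-associated protease, measured 44.6 and 19.3 TPM in acute ECs and 1.22 to 6.07 in WT cultures, a log2 fold change of -2.31 ± 0.60 (adjusted p = 0.0135). The acute value came mostly from non-coding transcripts. A processed transcript made up 84.5% of it in replicate 1, and a retained intron made up 52.8% in replicate 2. Over protein-coding transcripts alone the acute levels were 2.37 and 5.08 TPM, the log2 fold change was -0.61, and the call was lost (adjusted p = 0.3).

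Adamts1 and Adamts9 cut versican and other proteoglycans and were detected in all ECs. Adamts1 measured 50.3 and 58.6 TPM in acute ECs and 23.5 to 144 in WT cultures, and its log2 fold change was -0.30 ± 0.77 (adjusted p = 0.769). Method A wells lay above both acute libraries and 36-cycle method B wells below them. Adamts9 measured 9.53 and 2.64 TPM in acute ECs and 2.59 to 22.8 in WT cultures (log2 fold change 0.31 ± 0.95, adjusted p = 0.811). Against GFP-negative cells, Adamts9 was higher in acute ECs by adjusted p (log2 difference 2.64 ± 0.56, adjusted p = 0.0181). Adamts4, a further proteoglycan-cleaving protease, measured 0.0783 and 0.0704 TPM in acute ECs and 10.0 and 3.68 in GFP-negative cells. Its WT cultures ran from 0.573 to 19.2 TPM, and the log2 fold change of 4.89 ± 1.24 from acute ECs passed the adjusted p (0.0116) without reaching 5 TPM in every well. Adamts7, which cuts cartilage oligomeric matrix protein, passed likewise at 5.28 ± 1.03 (adjusted p = 0.00372), from 0.362 and 0.0702 TPM in acute ECs to 1.84 to 8.77 in WT cultures.

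Other ADAMTS genes were low in ECs. Adamts15, a proteoglycan-cleaving protease, measured 7.75 and 7.04 TPM in GFP-negative cells and 0.795 and 0.258 in acute ECs, a log2 difference of -2.88 ± 0.82 (adjusted p = 0.0436). In WT cultures it was at or under 0.0262 TPM, a further log2 fold change of -7.83 ± 1.05 (adjusted p = 0.000684). Adamts16 was at least 50.2-fold lower in culture than in acute ECs, from 89 acute counts to 0. Adamts20 was at least 371-fold lower in acute ECs than in GFP-negative cells. Adamts3, a procollagen N-proteinase that also processes VEGF-C, had 1 count over the acute libraries and 521 over the GFP-negative ones, a ratio of 651 (exact 95% interval 116 to 25800). Adamts2, of the same group, measured 0.0221 and 0 TPM in acute ECs and 0.578 to 2.03 in WT cultures (log2 fold change 5.17 ± 1.19, adjusted p = 0.00773). Adamts13, the protease of von Willebrand factor, was at 0 counts in acute ECs and at 0 to 0.528 TPM in WT cultures. Its 142 counts there were at least 28.0-fold higher per library total, and its adjusted p of 0.0794 did not pass.

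Of the ADAMTS-like genes, Adamtsl2, whose product binds fibrillin and latent TGF-beta binding protein, was highest in acute ECs. It measured 9.44 and 15.4 TPM in acute ECs, 0.266 and 0.00753 in GFP-negative cells and 0.0505 to 0.338 in WT cultures. Both acute values exceeded those of all other libraries. The log2 difference from GFP-negative cells was 7.60 ± 1.38 (adjusted p = 0.0114), and the log2 fold change in culture was -6.86 ± 0.93 (adjusted p = 0.000726). A retained-intron transcript made up 72.4% of the value in acute replicate 2 and the protein-coding one 68.8% of that in replicate 1. Over protein-coding transcripts alone the log2 fold change in culture was -6.45, with acute replicate 2 at 4.18 TPM, under the 5 TPM minimum. Adamtsl1 measured 2.31 and 0.735 TPM in acute ECs and 13.5 and 22.2 in GFP-negative cells (log2 difference -2.82 ± 0.48, adjusted p = 0.00939). The call was kept in 9 of 11 alternatives. Over protein-coding transcripts alone, the 2 groups overlapped and lay under the 5 TPM minimum. Acute ECs then ran from 0.305 to 0.316 TPM and GFP-negative cells from 0.203 to 1.5. Adamtsl1 reached at most 0.096 TPM in WT cultures. Adamtsl4 gave values that rest on one non-coding transcript, which held 77.3% and 96.6% of its TPM in the acute libraries. With an offset for transcript length its log2 fold change in culture turned from 0.91 to -2.25 (adjusted p = 0.0174).

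Acute ECs against GFP-negative cells asks which of these genes the endothelium of the living brain expresses more than its neighbours. Of 41 genes tested, 3 were called higher in ECs (7.32%, against 8.28% of the 15116 genes tested), namely Adamtsl2, Mmp28 and Mmp15. A further 5 were called lower (12.2%, against 7.55%), namely Timp4, Mmp14, Adamts15, Adamtsl1 and Timp2. By adjusted p alone, 5 were higher (12.2%, against 9.9%) and 18 lower (43.9%, against 19.7%), and the median log2 difference was -2.88 against -0.06 over all genes tested. None of 6 pericyte markers differed by adjusted p between the 2 fractions, whereas all 5 smooth muscle markers were lower in acute ECs. Smooth muscle markers summed to 3620 to 5310 TPM in GFP-negative cells, 216 to 236 in acute ECs and 503 to 3070 in WT cultures. The markers did not move together, since 3 of the 5 were called higher in WT culture than in acute ECs and 1 lower (against 13.5% and 10.2% of all genes tested). This comparison and that of culture with acute ECs share the 2 acute libraries, and their values are given side by side only.

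**Figure D3:**
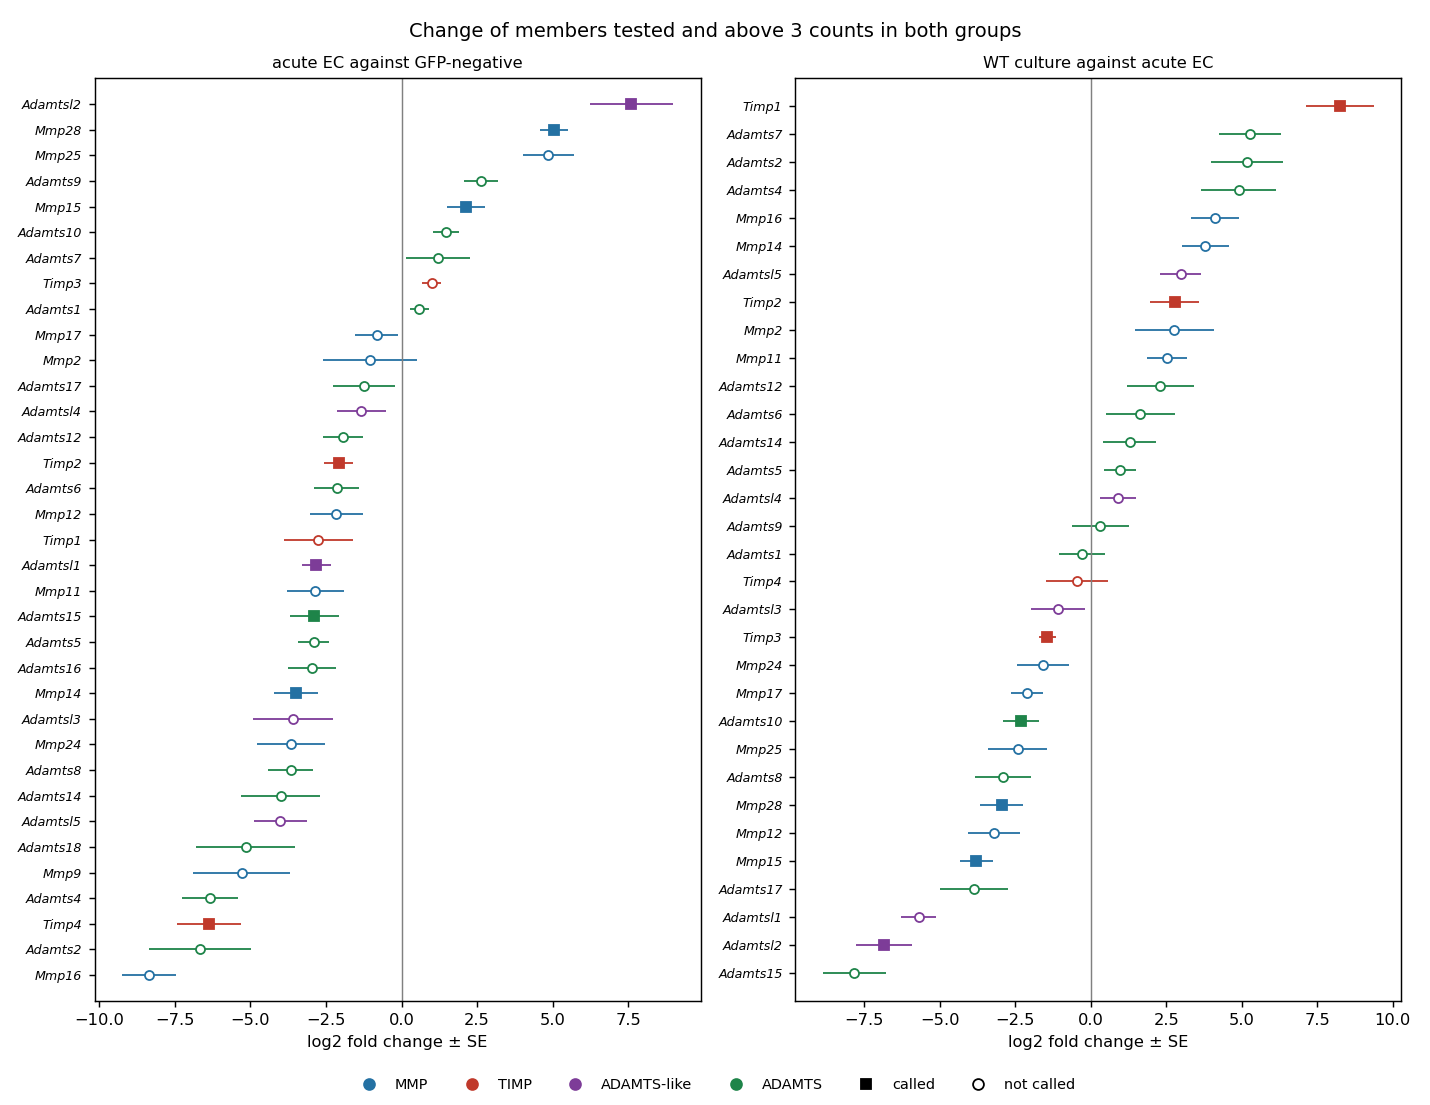
Log2 fold change with its SE for every gene of the group that was tested and above 3 counts in both groups, on the left for acute ECs against GFP-negative cells and on the right for WT culture against acute ECs. Filled squares passed the full call and open circles did not. Timp1 heads the right panel at 8.25 and Adamtsl2 heads the left at 7.60.

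Other genes of the same system were followed through 3 lists. Of 12 tested activators and other inhibitors, 3 were called higher in culture than in acute ECs and 4 lower, with a median log2 fold change of -0.24. Over all genes tested, 13.5% were called higher and 10.2% lower. The higher ones were the urokinase receptor Plaur (6.13 ± 0.80), urokinase Plau (5.23 ± 1.36) and the protease inhibitor Tfpi2 (3.85 ± 0.78). The lower ones were the membrane-anchored MMP inhibitor Reck (-2.49 ± 0.24), the MMP inducer Bsg (-2.75 ± 0.32), Serpine2 (-1.86 ± 0.35) and the clearance receptor Lrp1 (-1.73 ± 0.55). Of 7 tested ADAM proteases, relatives anchored in the membrane, Adam12 (6.01 ± 1.06) and Adam9 (2.69 ± 0.47) were called higher and Adam10 (-2.34 ± 0.55) and Adam17 (-1.71 ± 0.24) lower. Of 9 tested substrates, such as Vcan, Vwf and fibrillar and basement membrane collagens, none was called, and 1 was higher and 1 lower by adjusted p. Against GFP-negative cells, acute ECs had 3 activators or inhibitors called higher and 3 lower of 12, 3 ADAM proteases higher of 8, and 3 substrates higher and 5 lower of 12, beside 8.28% higher and 7.55% lower over all genes tested.

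Beta-catenin stabilization was compared with WT culture to ask whether stabilized beta-catenin shifts the cultured cells. The authors reported that genes regulated by this signaling stayed extremely low in the stabilized cultures. They took this to imply that signaling was not activated, although stabilized beta-catenin was made. Over all 4 stabilized and 6 WT libraries, 0 of 35 tested genes of the group were called, as was 0.0% of the 12971 genes tested by edgeR, in either direction. By adjusted p alone the background was 0.0% as well. At an unadjusted p under 0.05, 2 genes of the group passed (5.71%, against 11.0%), namely Timp3 at a log2 fold change of 0.40 and Adamtsl1 at 1.05. By DESeq2, 15 genes were called higher and 3 lower over all genes, and none belonged to the group. The median log2 fold change was -0.13 over the 35 genes and -0.07 over all genes. With the replicate number as a block, Adamts7 was the 1 gene of the group called (1.22 ± 0.19, adjusted p = 0.0458), beside 150 genes higher (1.17%) and 40 lower (0.313%) overall. The block sets stabilized replicates 3 and 4 beside the 150-cycle WT wells, so read type and preparation cannot be told apart from genotype there. Against the 36-cycle WT wells of method B, Adamts7 was at -0.27, and 0 genes were called when both wells of an experiment were added together. By adjusted p alone the blocked fit placed 1 gene of the group higher (background 3.56%) and 0 lower (2.05%). By edgeR, the lists of activators and other inhibitors, ADAM proteases and substrates likewise held 0 calls in stabilized cultures, with 1, 0 and 1 genes in turn at an unadjusted p under 0.05.

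The spread among culture experiments was wide, so the change was also taken within each isolation method among the 36-cycle libraries. Within method A, adjusted p alone placed 11 of 34 genes higher (background 29.2%) and 6 lower (26.7%). Within method B it placed 9 of 34 higher (19.5%) and 6 lower (17.6%). By the full call, 3 of 34 were higher in method A (background 5.39%) and 0 lower (0.933%), and 1 was higher in method B (1.08%) and 0 lower (0.288%). These are comparisons of 2 wells with 2 wells of another experiment, so genotype and experiment cannot be told apart in either. In method A the WT wells came from C57BL/6J mice, which lack the flex3 allele, and whether they received 4-hydroxytamoxifen is not clear from the sources used here.

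Some genes moved one way in both methods. Adamts9 measured 43.5 and 50.9 TPM in stabilized wells of method A against 13.3 and 22.8 in WT wells, and 11.6 and 11.2 against 5.52 and 6.09 in method B. Its log2 fold changes were 0.74 ± 0.12 (adjusted p = 0.00289) and 1.04 ± 0.06 (adjusted p = 0.000664, called). Adamts4 measured 14.3 and 14.5 TPM against 3.30 and 4.84 in method A (1.03 ± 0.09, adjusted p = 0.000702, called). In method B it measured 1.88 and 2.07 against 0.573 and 0.671 TPM (1.79 ± 0.12, adjusted p = 0.000789), under the TPM minimum. The 150-cycle WT wells held 19.2 and 18.6 TPM of Adamts4, above every stabilized well. Mmp25 had log2 fold changes of 1.82 ± 0.20 (adjusted p = 0.000969) and 1.46 ± 0.32 (adjusted p = 0.0167) at levels of 1.43 TPM and below. The 150-cycle WT wells held 4.99 and 3.90 TPM of Mmp25, again above every stabilized well, and over all 10 cultured libraries its log2 fold change was -0.18. With method as a term over all 8 of these 36-cycle libraries, 8 genes of the group were higher by adjusted p and 0 lower (background 9.03% and 8.57%). They were Adamts4, Adamts5, Adamts9, Adamtsl4, Mmp24, Mmp25, Timp2 and Timp3. Of these, only Adamts4, Adamts9 and Mmp25 also passed within each method. For Timp2 and Adamtsl4 the highest WT wells, at 318 and 12.6 TPM, again exceeded every stabilized well (at most 156 and 5.18). For Adamts5, Adamts9, Mmp24 and Timp3 the highest stabilized well exceeded every WT well.

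Others differed by method in size or direction. Timp1 measured 123 and 217 TPM against 34.9 and 55.8 in method A (1.11 ± 0.23, adjusted p = 0.00762, called) and 69.4 and 62.9 against 79.7 and 73.8 in method B (-0.11 ± 0.08, adjusted p = 0.312). Timp2 measured 122 and 156 TPM against 49.7 and 66.7 in method A (1.0 ± 0.09, adjusted p = 0.000678, called) and 47.7 and 54.0 against 52.2 and 47.9 in method B (0.32 ± 0.10, adjusted p = 0.0561). By counts scaled by library, Mmp14 and Mmp28 were lower with stabilization in method A (-0.56 ± 0.11 and -0.35 ± 0.09). They were higher in method B (0.44 ± 0.07 and 0.43 ± 0.09), each past the adjusted p. Adamts7 went the opposite way, at 0.87 ± 0.09 in method A and -0.27 ± 0.08 in method B. For Mmp28 the direction in method A depended on the scale. Its transcript Mmp28-202 held 4.66 and 4.79 TPM in stabilized wells of method A against 3.04 and 3.89 in WT wells. Tested as an interaction in one fit of the 8 libraries, the change differed between methods for 16 of 35 genes. It was more positive in method B for 9 (25.7%, against 25.0% of 13369 genes tested) and more negative for 7 (20.0%, against 24.5%).

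**Figure D4:**
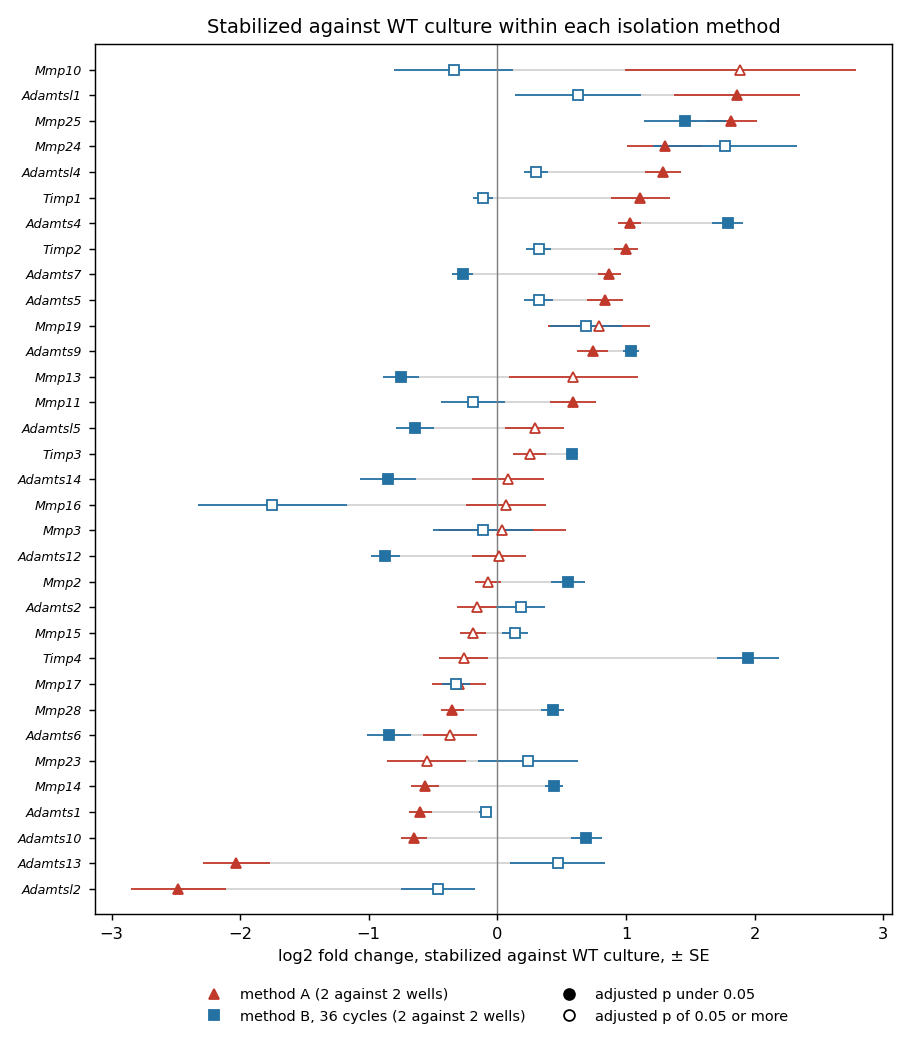
Log2 fold change with its SE of stabilized against WT cultures within method A (triangles) and within the 36-cycle libraries of method B (squares) for each gene tested, ordered by the method A value and joined by a grey line. Filled symbols passed an adjusted p of 0.05. Adamts9, Adamts4 and Mmp25 are filled and to the right in both, whereas Mmp14, Mmp28 and Adamts10 lie on opposite sides. The changes rest on scaled counts. By TPM, Mmp28 was higher with stabilization in both methods, and Adamts10 overlapped between genotypes in method A.

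ATAC-seq, which marks open chromatin by transposase insertion, gave peaks called in each library alone. Acute libraries held 37453 and 31844 peaks, method A WT cultures 50450 and 33152, method B WT cultures 84560 to 98840 and stabilized ones 80075 and 79160. A promoter was counted as open in a library when a peak with fold enrichment over 2 and -log10 q over 2 lay within 1000 bases of an annotated start. Both acute libraries had a peak at 17 of the 51 promoters (33.3%, against 54.1% of 21848 genes), all 6 WT cultures at 15 (29.4%, against 53.0%) and both stabilized cultures at 32 (62.7%, against 61.3%). The rules are unlike, since the WT count asks for a peak in 6 libraries, including the method A ones with fewer peaks. The stabilized count asks for 2 libraries, both of method B, so these counts cannot be compared between the groups. All 10 libraries shared 12 (23.5%, against 50.3%), and 10 had no peak in any (19.6%, against 31.9%). The pattern of all 8 cultured and 0 acute libraries was seen at Timp1 and Adamts3 (3.92%, against 1.68%). Unlike Timp1, Adamts3 had hardly any transcript in culture, with 1 RNA-seq count over the WT cultures and 8 over the stabilized ones. No promoter of the group was open in both acute and no cultured library, as were 0.243% of all genes.

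The 3 TIMPs with changed transcripts also differed in peak height. At Timp1 no acute peak was called, and fold enrichment was 9.16 to 13.98 in WT cultures and 9.82 and 10.79 in stabilized ones. At Timp3 it was 14.04 and 14.33 in acute ECs, 4.2 to 6.91 in WT cultures and 6.87 and 5.37 in stabilized ones. At Timp2 it was 7.34 and 4.46 in acute ECs, 8.31 to 17.26 in WT cultures and 11.51 and 13.48 in stabilized ones. These 3 were picked out after their heights were seen. In each the acute and cultured heights did not overlap and lay on the same side as the transcript levels, with no test because peak height follows the depth of each library. Of the other 4 called genes, none showed such a separation. Adamts10 stood at 12.1 and 12.18 in acute ECs and at 8.77 to 16.84 in WT cultures, and Mmp28 at 3.82 and 3.15 against 4.53 or less. Adamtsl2 stood at 10.31 and 5.23 in acute ECs and at 8.35 or less in WT cultures, with no peak in replicates 1 and 2. Among the proteases, Mmp13 had no promoter peak in any library, Mmp3 had one in WT replicate 4 alone, and Mmp10 had one in WT replicates 3 to 6 (4.12 to 5.7). The Mmp15 promoter was open in all 10, at 3.1 to 4.96.

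**Figure D5:**
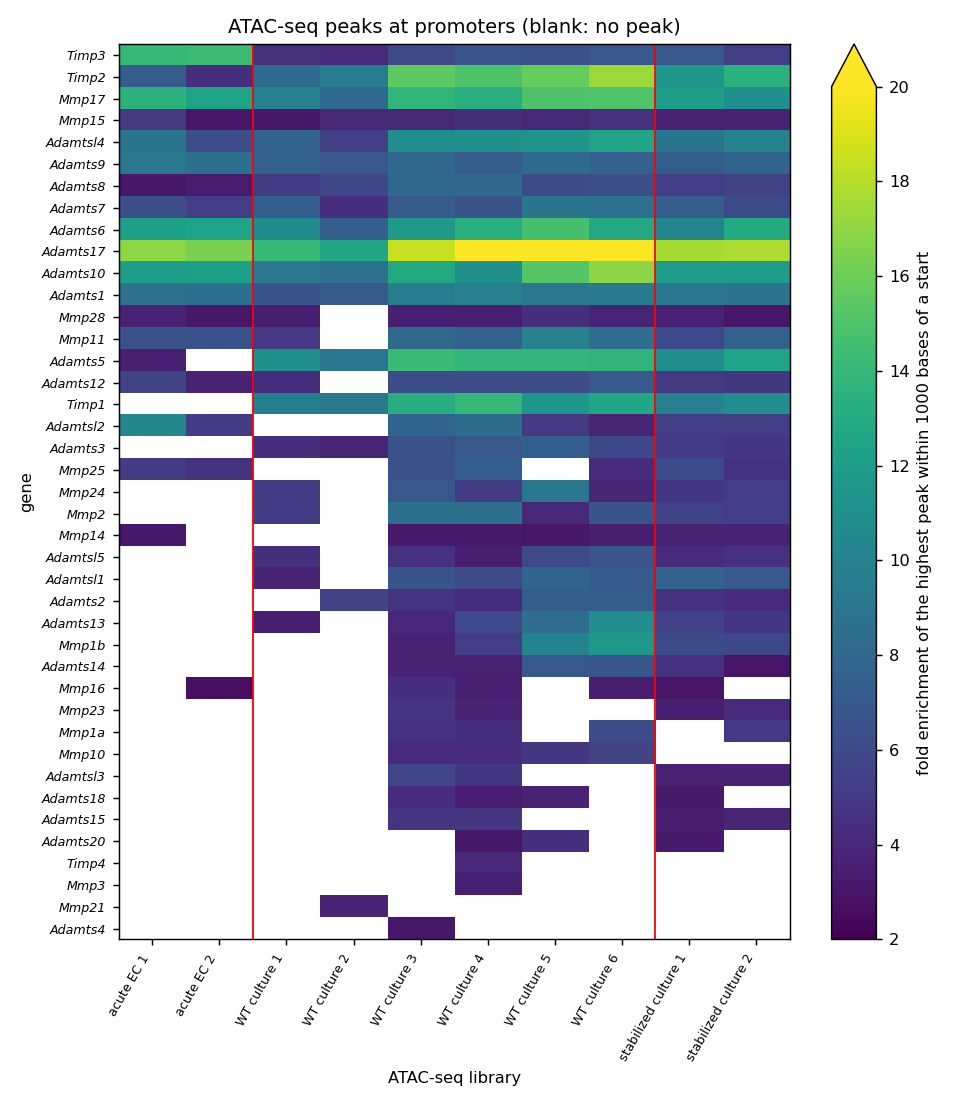
Fold enrichment of the highest ATAC-seq peak within 1000 bases of a start (color, capped at 20) for the genes of the group with a peak in any library, with white where no peak was called and red lines between acute, WT and stabilized libraries. Timp1 and Adamts3 are white in both acute columns and colored in all 8 cultured ones, and WT replicates 1 and 2 have fewer colored cells than replicates 3 to 6.

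Promoter sequence was read from RefSeq (GRCm38.p6) for 36 of the 51 genes, which gave 39 promoters. In the 250 bases before the start, the AP-1 site TGANTCA was found on either strand in 8 of 39 promoters (20.5%), against 6.75% of 32851. The TATA-box string TATAAA, at any position in the last 50 bases, was found in 8 (20.5%, against 2.63%), and both together in 6 (15.4%, against 0.338%). All 8 promoters with an AP-1 site belonged to one cluster of MMP genes on chromosome 9, namely Mmp1a, Mmp1b, Mmp3, Mmp7, Mmp10, Mmp12, Mmp13 and Mmp20, which are neighbours and related copies. Of the 7 genes called between culture and acute ECs, 6 had a promoter sequence here, all but Adamts10, and none of these 6 held the site. The 110 bases before 5 starts are shown 5′ to 3′, a choice made after the values were seen. They are the promoters of Mmp3, Mmp10 and Mmp13, which had counts in culture and none in acute ECs, of Mmp7 as a cluster neighbour with both strings and no count in any library, and of Timp1. Capitals mark TGANTCA and TATAAA on either strand.
Mmp3 promoter, chr9:7445712-7445821, plus strand: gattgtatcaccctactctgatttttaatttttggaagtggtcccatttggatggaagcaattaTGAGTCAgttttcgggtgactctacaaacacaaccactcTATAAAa
Mmp10 promoter, chr9:7502232-7502341, plus strand: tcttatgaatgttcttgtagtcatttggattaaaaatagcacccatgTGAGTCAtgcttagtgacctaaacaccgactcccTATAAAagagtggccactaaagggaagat
Mmp13 promoter, chr9:7272404-7272513, plus strand: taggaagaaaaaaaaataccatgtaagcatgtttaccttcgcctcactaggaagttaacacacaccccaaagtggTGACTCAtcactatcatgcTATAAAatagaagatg
Mmp7 promoter, chr9:7691980-7692089, plus strand: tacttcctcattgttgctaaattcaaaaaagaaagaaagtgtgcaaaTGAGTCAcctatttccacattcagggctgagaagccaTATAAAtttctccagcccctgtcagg
Timp1 promoter, chrX:20870056-20870165, plus strand: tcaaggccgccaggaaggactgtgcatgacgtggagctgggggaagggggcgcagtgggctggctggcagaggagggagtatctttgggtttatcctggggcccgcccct
Mmp3, Mmp10 and Mmp13 have both strings in this stretch, and so does Mmp7. Their positions differ, since TATAAA begins at -29 in Mmp10 and -26 in Mmp7, but at -7 in Mmp3 and -16 in Mmp13. Of other genes with 0 acute counts and more than 3 in WT culture, Mmp1a has both strings, and Adamts13, Adamts20 and Mmp23 have neither in the stretches searched. Mmp1b, with 3 counts in WT and 11 in stabilized cultures, has both. Mmp27, with 0 counts in WT and 4 in stabilized cultures, has neither. The Timp1 stretch holds neither, lies in an intron of Syn1 and sits within the culture-only peak at chrX:20869697-20870411. A match is a description of letters and says nothing on whether a factor binds there.

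From 10000 bases before each gene to its end, promoters included, 327 merged peak regions lay within or next to the genes of the group. Of these, 15 were open in both acute and no cultured library (4.59%, against 2.84% of 126224 regions) and 24 in all 8 cultured and no acute library (7.34%, against 8.01%), of which 2 were the Timp1 and Adamts3 promoter peaks. An AP-1 site lay in the 201 bases at the summit of 9 of the 24 culture-only regions (37.5%, against 49.6% of all culture-only regions) and of 1 of the 15 acute-only regions (6.67%, against 3.57%). The TCF/LEF site CTTTGA lay in 5 of the acute-only regions (33.3%, against 31.1%) and 2 of the culture-only ones (8.33%, against 11.8%). The TEAD site GGAATG lay in 4 (26.7%, against 10.2%) and 5 (20.8%, against 23.1%). Matches may overlap, since the last letters of the other two strings match the first letters of the AP-1 one.

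Mmp28 held both kinds of region, and its windows show the 2 patterns side by side. An intronic region at chr11:83454174-83454941 and one before the gene at chr11:83465951-83466389 were open in acute ECs alone. A region in between, in an intron at chr11:83457907-83458467, was open in cultures alone with fold enrichment up to 13.73 in WT and 11.33 in stabilized wells. The culture-only regions in an intron of Timp3 at chr10:86330378-86330771, which also lies within Syn3, and in an intron of Mmp2 at chr8:92846794-92847954 are given for comparison. These 5 windows were chosen after their strings were seen. Timp3 and Mmp2 each also have a culture-only region without the AP-1 string and an acute-only region without the TCF/LEF string, which are not shown. Each line gives the 201 bases at the summit (GRCm38, plus strand, 5′ to 3′), and capitals mark the AP-1, TEAD and TCF/LEF strings on either strand.
Mmp28 intron, acute only, chr11:83454548-83454748: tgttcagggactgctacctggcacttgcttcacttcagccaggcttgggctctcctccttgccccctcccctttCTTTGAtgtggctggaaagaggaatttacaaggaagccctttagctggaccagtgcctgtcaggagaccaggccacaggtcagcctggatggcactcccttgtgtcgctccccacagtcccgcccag
Mmp28 upstream, acute only, chr11:83466068-83466268: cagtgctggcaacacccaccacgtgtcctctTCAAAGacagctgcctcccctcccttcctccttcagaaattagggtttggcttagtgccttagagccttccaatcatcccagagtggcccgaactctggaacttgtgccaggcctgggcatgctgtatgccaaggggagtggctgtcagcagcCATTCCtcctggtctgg
Mmp28 intron, culture only, chr11:83458011-83458211: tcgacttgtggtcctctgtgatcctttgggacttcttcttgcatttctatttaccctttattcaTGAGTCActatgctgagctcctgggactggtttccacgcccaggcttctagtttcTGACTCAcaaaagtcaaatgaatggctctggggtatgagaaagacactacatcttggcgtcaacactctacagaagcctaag
Timp3 intron, culture only, chr10:86330452-86330652: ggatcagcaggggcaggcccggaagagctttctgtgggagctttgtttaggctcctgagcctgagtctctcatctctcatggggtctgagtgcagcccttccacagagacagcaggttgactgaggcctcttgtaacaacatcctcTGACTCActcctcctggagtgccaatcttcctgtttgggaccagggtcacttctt
Mmp2 intron, culture only, chr8:92847444-92847644: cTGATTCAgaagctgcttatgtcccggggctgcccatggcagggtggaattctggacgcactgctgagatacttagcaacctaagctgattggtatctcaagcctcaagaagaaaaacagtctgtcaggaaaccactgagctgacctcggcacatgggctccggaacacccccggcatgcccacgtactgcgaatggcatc
The acute-only windows of Mmp28 each hold the TCF/LEF string and no AP-1 string. The culture-only window of Mmp28 holds the AP-1 string in 2 places, and those of Timp3 and Mmp2 hold it once each. Mmp28 transcripts were lower in culture than in acute ECs, Timp3 transcripts were lower and those of Mmp2 did not pass the test.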

How the data were processed

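The authors quantified RNA-seq reads with Salmon 0.14.0 against GENCODE mouse transcripts and deposited, for each of 14 libraries, estimated counts and TPM per transcript. They called ATAC-seq peaks in each of 10 libraries with MACS2 2.1.2 on mm10, and deposited for each peak a score, a fold enrichment (a ratio over background), and -log10 p-values and q-values. HISAT2 2.1.0 is also named in the submitters' processing notes. The cerebrum libraries were not analysed here.

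Estimated counts were summed per gene, rounded and tested over protein-coding genes with edgeR 4.0.16 (filterByExpr, TMM, quasi-likelihood) in R 4.3.3, and adjusted by Benjamini-Hochberg. DESeq2 1.42.0 was an alternative. TPM, a transcript's share of its library after division by length, is the only scale on which levels of different genes were compared. Standard errors were taken from the quasi-likelihood F statistic. The code was tested on simulated data. Counts of 0 were bounded with a floor of 3 counts over the group, at 95% confidence for exact intervals.

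Genes were chosen by symbol, and values are given per library for those called in any comparison or among the 10 highest by mean TPM in any RNA-seq group. One gene of the list of activators and other inhibitors is not reported here. Members, lists and tests were chosen with earlier results of these data known. Of the stabilized and WT cultures, wells of the same number deviated together from their group means (r = 0.227, 0.271, 0.234 and 0.259 for numbers 1 to 4, over 15777 genes). The replicate block is therefore given beside that comparison. Wells of the same number share the isolation method in both groups, so these r values cannot tell a pairing of wells from the method. One alternative, protein-coding transcripts alone, was added after the data were seen.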

Additional observations from a re-analysis of the deposited data

Results flagged for a closer look

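The change between stabilized and WT cultures differed between isolation methods for 16 genes, tested as an interaction in edgeR over the 8 cultured libraries of 36 cycles, with the values given as method B minus method A on the log2 scale. Each side rests on 2 wells against 2, so method and culture experiment cannot be told apart. Of 13369 genes tested, 25.0% were higher and 24.5% lower in the same test.

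The change was more positive in method B for Adamts13 (2.52, adjusted p = 0.00158), Timp4 (2.23, 0.000456), Adamtsl2 (2.04, 0.00865), Adamts10 (1.36, 0.00029) and Mmp14 (1.02, 0.000487). The same held for Mmp28 (0.80, 0.00105), Adamts4 (0.78, 0.00362), Mmp2 (0.64, 0.0118) and Adamts1 (0.53, 0.00377). Adamts13 and Adamtsl2 stayed under 1 TPM in all of these wells, as did Timp4. These values rest on counts, and by TPM Mmp28 was higher with stabilization in both methods. The change was more negative in method B for Mmp13 (-1.37, 0.0389), Timp1 (-1.19, 0.00715), Adamts7 (-1.12, 0.00033) and Adamtsl4 (-0.96, 0.00194). It was also so for Adamtsl5 (-0.91, 0.0166), Adamts12 (-0.85, 0.0235) and Timp2 (-0.67, 0.00568).

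Dixon's test for a single outlying library flagged none of 43 groups of values, where chance would place 2.15 past the limit. These were WT or stabilized cultures with a group mean of at least 1 TPM, so Adamts13 and Adamtsl2 were not tested. Acute and GFP-negative libraries were not tested either. Paired wells of an experiment had similar values, so the test could hardly flag a single well, and no conclusion is drawn from it.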

How the results depend on the processing

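Of 2377 values under alternative settings, 110 changed sign, 3 of them with a call. Between WT culture and acute ECs, 7 genes were called, 26 without the TPM minimum (14 higher, 12 lower), and 4 to 7 when 1 library was left out, with the 4 reached without acute replicate 1. Timp1 (6.93 to 9.14) and Mmp15 (-4.44 to -2.67) kept their calls in 18 of 18 alternatives. Adamtsl4 turned from 0.91 to -2.25 with an offset for transcript length. Between acute ECs and GFP-negative cells, 8 genes were called, 23 without the TPM minimum (5 higher, 18 lower), 4 over protein-coding transcripts alone, and 5 to 9 when 1 library was left out, with the 5 reached without GFP-negative replicate 1. Mmp28, Mmp14 and Timp4 kept their calls in 11 of 11. Scaling by library size moved the median of all genes from 0.10 to 0.30 in the first comparison and from -0.06 to -0.44 in the second, where calls over all genes went from 1252 higher and 1142 lower to 929 and 1419. Between stabilized and WT cultures, 0 genes were called, 1 with the replicate block, 3 within method A and 1 within method B. Timp1 turned from -0.38 to 1.11 and Timp2 from -0.22 to 1.0 within method A. Deviations of libraries of the same number correlated at r = 0.00487 between acute and cultured ones and at r = 0.0595 between acute and GFP-negative ones. With 2 libraries in a group, these values cannot show whether fractions of one sort are paired, and the main test did not pair them. There the block gave 5 higher and 5 lower in the first comparison and 2 and 5 in the second. Open promoters went from 17 to 27 in acute ECs and from 15 to 32 in WT cultures when the window ran from 10000 bases before the gene to its end, which is a longer window. The cause of the other changes was not tested. With 2 acute libraries, changes in genes of a few counts were not detectable at this depth.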
